A study of Homo sapiens with 3 samples.

Results

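The genes described here are 10 death regulators: the survival genes BCL2, BCL2L1 and MCL1, the pore-forming effectors BAX and BAK1, the BH3-only genes BID, BBC3, PMAIP1 and BCL2L11, and TNFRSF10B, a death receptor gene. They were followed through all probe sets whose platform symbol is exactly one of these names, which are 33 of the 54675 on the array and cover 9 of the 10 genes. The only probe set with the symbol BBC3 also names 2 microRNA genes, so no value is given for BBC3. RNA came from undifferentiated cells of khES3, an established line of human embryonic stem cells, after 5 hours in complete medium, in medium deprived of leucine or in medium deprived of lysine. All 3 cultures share the line, the growth before the assay and the duration, and each condition had 1 Affymetrix array. No difference can be checked against replicates or given a p-value, and the labels do not say how many cultures an array stands for.

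Mitochondrial death is set by contacts among BCL2 proteins. The survival proteins BCL2, BCL-XL (from BCL2L1) and MCL1 hold back BAX and BAK1, which otherwise open pores in the outer mitochondrial membrane and release cytochrome c. BH3-only proteins, such as NOXA (from PMAIP1), PUMA (from BBC3), BIM (from BCL2L11) and BID, bind the survival proteins and free the effectors, and NOXA binds MCL1 in particular. When amino acids run short, the kinase GCN2 raises translation of ATF4, which induces CHOP (from DDIT3). CHOP is known to act on TNFRSF10B, BCL2L11 and BBC3 and against BCL2, and ATF4 is known to act on PMAIP1. Human pluripotent stem cells are known for a low threshold to apoptosis.

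By its brightest probe set PMAIP1 stood farthest from 0 of the 9 measured genes after either deprivation, and its promoter is shown for that reason. The 250 bases before its RefSeq start (GRCh38.p14, plus strand, chr18:59899746-59899995) are written 5′ to 3′, and the capitals mark the only match in this window to TGACGT, the core of an ATF and CREB binding element, here read on the opposite strand as ACGTCA:
PMAIP1: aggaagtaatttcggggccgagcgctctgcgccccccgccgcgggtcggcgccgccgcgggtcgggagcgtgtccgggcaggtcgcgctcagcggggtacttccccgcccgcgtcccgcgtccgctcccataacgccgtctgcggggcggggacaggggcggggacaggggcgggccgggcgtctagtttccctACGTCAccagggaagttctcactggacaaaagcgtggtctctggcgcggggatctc
The match lies 56 to 51 bases before the start. Windows of 300 bases (250 before the start and 50 after it) were in the RefSeq table for 8 of the 10 genes, all but MCL1 and TNFRSF10B. On both strands TGACGT was found in the window of 1 of these 8 genes, PMAIP1, against 9.64% of 27305 genes. The full palindrome TGACGTCA, which contains TGACGT, was in none of the 8 (2.25% of all genes), nor was TGATGNAA, the core of the element that C/EBP and ATF proteins share (4.46%). Among 12 genes of the ATF4 and CHOP axis, listed further on, TGACGT was in 1 window and TGATGNAA in 3. A match of letters is a description of the sequence and not a binding site.

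Signals are MAS5 values on a linear scale, and differences are log2 ratios of signals (1 means 2-fold). A signal under the 40th percentile of its array (54.6 in complete medium, 56.7 without leucine, 62.4 without lysine) was set to that floor, so that a difference with 1 array at the floor is a bound. Probe sets were kept where their mean log2 signal was at or above the median of all probe sets, which held for 27 of the 33 and for at least 1 probe set of each of the 9 genes. Of these 27, 16 were also above the median level of the 23055 kept probe sets that name 1 gene, and are called bright. The only error these arrays offer is how far a gene's own probe sets disagree, given as the SD of their differences. It was 0.49 for leucine-deprived over complete and 0.57 for lysine-deprived over complete over 5981 genes, and 0.24 and 0.33 over the 2650 genes with several bright probe sets. It leaves out the spread between cultures.

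Most of the death genes differed little between the media. After leucine removal 0 of 27 kept probe sets were at least 2-fold higher with both arrays above the floor, against 2.64% of all kept probe sets, and 1 was at least 2-fold lower, against 1.85%. After lysine removal 0 were 2-fold higher (4.19% of all kept probe sets) and 0 were 2-fold lower (2.55%). Taking each gene by its brightest probe set, the median difference of the 9 genes was 0.14 after leucine removal and 0.02 after lysine removal, beside 0.01 and 0.00 over all 12961 genes. At 1.5-fold, 2 bright probe sets were higher after leucine removal (4.27% of all bright probe sets) and 2 after lysine removal (6.91%), and both times these were the 2 probe sets of PMAIP1. No bright probe set was 1.5-fold lower after either deprivation, where 2.35% and 6.87% of all bright probe sets were.

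**Figure D1:**
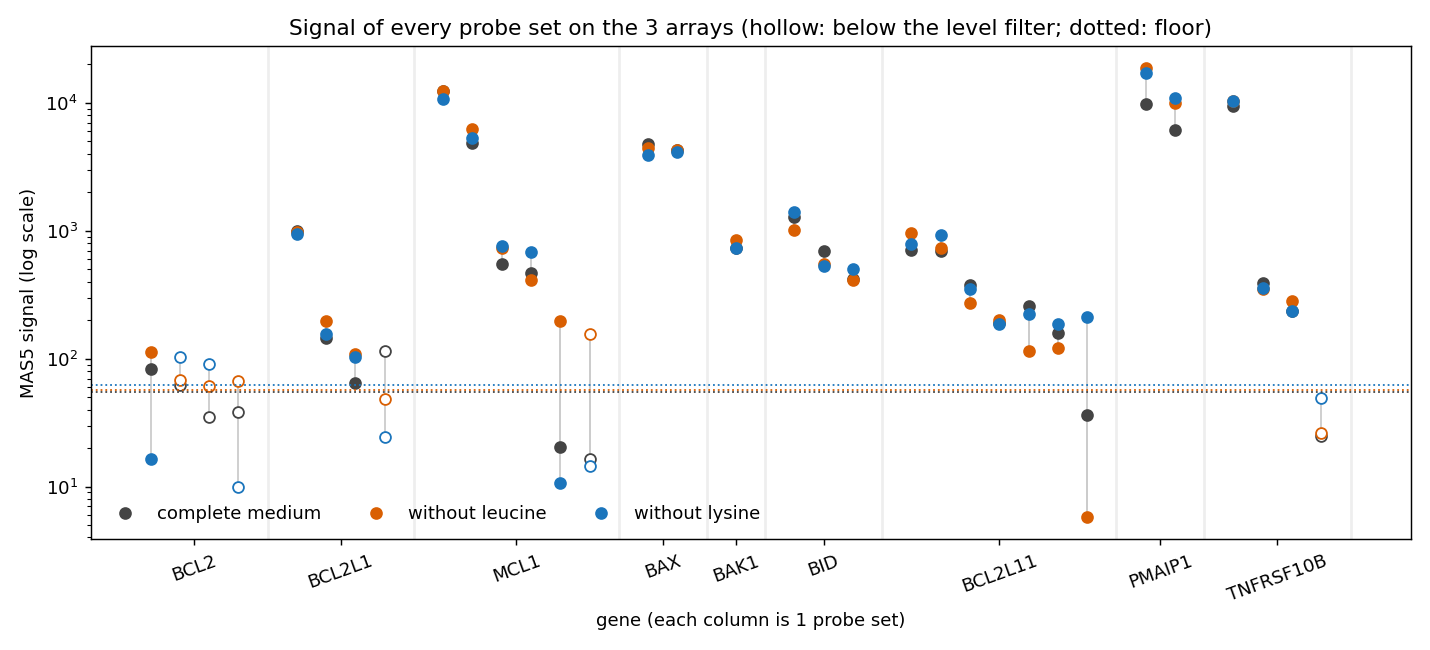
MAS5 signal (log scale) of all 33 probe sets, 1 column each, grouped by gene and coloured by medium, with hollow points for the 6 probe sets below the level filter and dotted lines at each array's floor. Both PMAIP1 columns have the complete-medium point lowest, the points of the brightest MCL1, BAX, BAK1 and TNFRSF10B columns nearly coincide, and all 4 BCL2 columns lie near the floor.

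PMAIP1 encodes NOXA, the BH3-only protein that binds MCL1. Its probe set 204285_s_at had a signal of 9886 in complete medium, 18646 without leucine and 17032 without lysine. Both deprived arrays were higher than complete medium and close to each other, at 1.89-fold (0.92) and 1.72-fold (0.78). Its other probe set, 204286_s_at, had 6151, 10025 and 10885, which is 1.63-fold (0.70) and 1.77-fold (0.82) higher. These values exceed the SD between bright probe sets of a gene (0.24 and 0.33), and neither reached 2-fold. The probe sets gave opposite signs for leucine- against lysine-deprived, 0.13 and -0.12, both smaller than the SD of 0.32 for that comparison. Among 11528 bright probe sets 294 (2.55%) were at least 1.5-fold higher after both deprivations, these 2 among them. A difference at least as high as that of 204285_s_at was reached by 135 bright probe sets (1.17%) after leucine removal and 359 (3.11%) after lysine removal. For 204286_s_at these were 289 (2.51%) and 320 (2.78%). Both comparisons share the complete-medium array.

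The genes whose pair of differences lay nearest to that of PMAIP1, among 6473 other genes at or above the median level and over 3 arrays, were EIF4EBP1, TET3, SOD2, SLC3A2 and LMBRD2. EIF4EBP1, which encodes a repressor of cap-dependent translation, differed by 0.92 after leucine removal and 0.81 after lysine removal, at a distance of 0.03. SLC3A2, the heavy chain of several amino acid carriers, had 0.88 and 0.83 (distance 0.06). TET3, a methylcytosine dioxygenase gene, had 0.97 and 0.81, and SOD2, the mitochondrial superoxide dismutase gene, 0.95 and 0.84 (distances 0.06). LMBRD2 had 0.91 and 0.86 (distance 0.08).

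**Figure D2:**
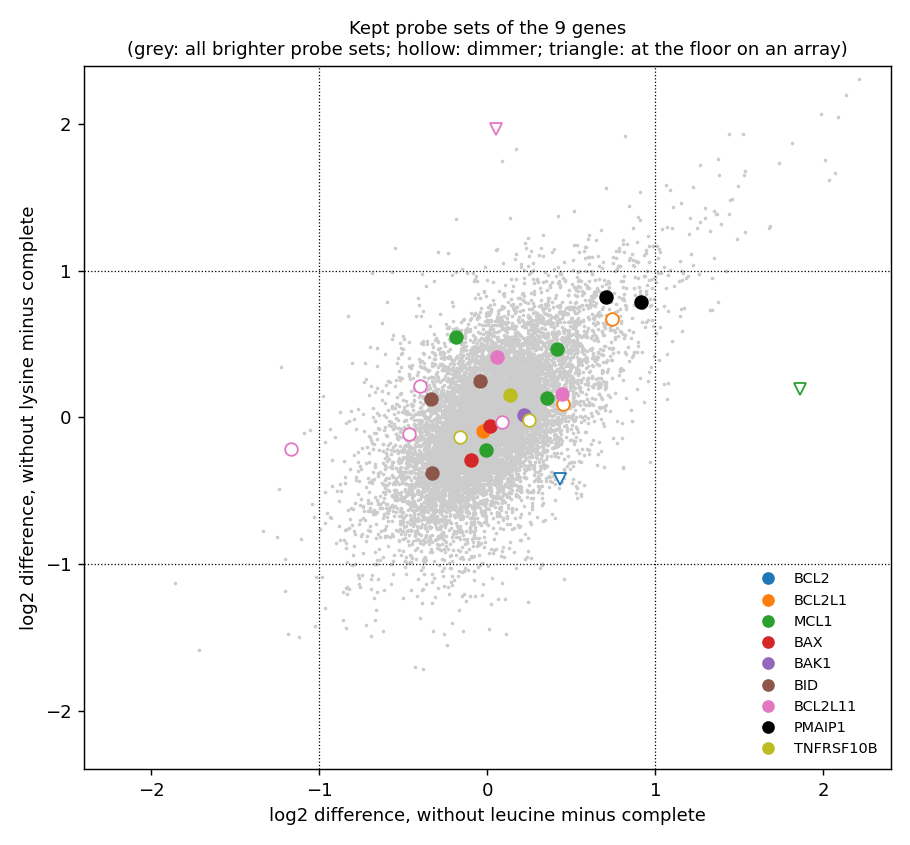
Log2 difference without leucine minus complete (x) against without lysine minus complete (y) for the 27 kept probe sets, with all 11528 bright probe sets in grey (11 of them lie outside the axes, which end at 2.4); filled points are bright, hollow points dimmer, and triangles are at the floor on at least 1 array. The 2 PMAIP1 points lie together at the upper right edge of the grey cloud, and the points far from it are dim probe sets of BCL2L11 and MCL1.

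Among the survival genes, MCL1 was read well above the floor by 4 probe sets. MCL1 protein turns over quickly and keeps BAK1 and BIM in check. Its probe set 200797_s_at had 12500 in complete medium, 12430 without leucine and 10727 without lysine, a difference of -0.01 and -0.22. Probe set 200798_x_at had 4852, 6213 and 5324, or 0.36 and 0.13. The 3 arrays lay within the SD between probe sets for the first of these, and 0.36 after leucine removal was above the SD of bright probe sets. The others were 214056_at, with 546, 728 and 755 (0.41 and 0.47), and 214057_at, with 470, 413 and 687 (-0.19 and 0.55). The 4 bright MCL1 probe sets thus gave 2 higher and 2 lower differences after leucine removal. The higher ones exceeded the SD of bright probe sets (0.24), and of the lower ones -0.01 is close to 0. After lysine removal only 200797_s_at was lower, and 0.47 and 0.55 exceeded that SD (0.33).

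A further pair of MCL1 probe sets read signal only on the leucine-deprived array. Probe set 200796_s_at had 20.5 in complete medium, 198 without leucine and 10.7 without lysine, at least 3.63-fold higher after leucine removal. Probe set 227175_at, which did not pass the level filter, had 16.5, 157 and 14.4, at least 2.87-fold higher. Both were at the floor on the other arrays. The 4 bright MCL1 probe sets had no difference of this size. Which part of the transcript each reads is not given in the sources used here.

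BCL2L1 encodes BCL-XL, a survival protein prominent in human pluripotent cells. Its brightest probe set, 212312_at, had 997 in complete medium, 982 without leucine and 938 without lysine (-0.02 and -0.09). These signals differed by less than the SD between probe sets. The dimmer 215037_s_at had 146, 199 and 155 (0.45 and 0.09), and 206665_s_at had 65.0, 109 and 104 (0.74 and 0.67), at 1.67-fold after leucine removal. A probe set below the level filter, 231228_at, had 116 in complete medium and was at the floor on both deprived arrays, a bound of -1.03 after leucine removal and -0.89 after lysine removal. The dim probe sets of this gene thus pointed in opposite directions while the brightest stayed near 0.

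BCL2, the founding survival gene of the family, was read near the floor by all 4 of its probe sets, so these arrays say little about it. The only kept one, 203684_s_at, had 83.4 in complete medium, 113 without leucine and 16.4 without lysine, the last at the floor. That is 0.43 higher after leucine removal and a bound of -0.42 after lysine removal. Those below the filter went the other way after lysine removal: 203685_at had 62.4, 68.1 and 103 (0.13 and 0.72), and 207004_at had 35.2, 61.4 and 90.5. Probe set 207005_s_at was above the floor only on the leucine-deprived array (66.4). No direction for BCL2 is common to its probe sets after lysine removal.

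The effectors BAX and BAK1 had nearly equal signals in the 3 media. BAX probe set 211833_s_at had 4749 in complete medium, 4437 without leucine and 3886 without lysine (-0.10 and -0.29). The second, 208478_s_at, had 4267, 4311 and 4102 (0.01 and -0.06). All 4 differences of BAX were within the SD between bright probe sets. BAK1, which unlike BAX sits in the mitochondrial membrane of healthy cells, has 1 probe set, 203728_at, with 730, 847 and 738 (0.22 and 0.02), also within that SD.

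BID, which links death receptors to mitochondria once a caspase has cut it, was read by 3 bright probe sets. Probe set 211725_s_at had 1284 in complete medium, 1019 without leucine and 1399 without lysine (-0.33 and 0.12). Probe set 227143_s_at had 690, 549 and 530 (-0.33 and -0.38), and 204493_at had 422, 410 and 502 (-0.04 and 0.25). All 3 lay below complete medium after leucine removal, 2 of them by more than the SD of bright probe sets (0.24), and they were split after lysine removal. None differed by 1.5-fold.

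BCL2L11 encodes BIM, a BH3-only protein that binds all the survival proteins and is made in several splice forms. It has 7 probe sets, all kept, 2 of them bright. Probe set 225606_at had 709 in complete medium, 966 without leucine and 790 without lysine (0.45 and 0.16), and 1553096_s_at had 700, 730 and 932 (0.06 and 0.41). Each was highest on a different deprived array. The dimmer 1555372_at had 259, 115 and 223, a difference of -1.17 after leucine removal, and was the only kept probe set of the 9 genes past 2-fold with both arrays above the floor.

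The remaining BCL2L11 probe sets scattered. Probe set 1558143_a_at had 378, 273 and 349 (-0.47 and -0.11), 222343_at had 160, 121 and 186 (-0.40 and 0.21), and 1553088_a_at had 190, 202 and 186 (0.09 and -0.03). Probe set 208536_s_at was at the floor in complete medium (36.5) and without leucine (5.79) but had 213 without lysine, at least 3.90-fold above complete medium. With floored values included, the SD of the 7 differences within this gene was 0.53 after leucine removal and 0.75 after lysine removal, larger than the brightest probe set's own difference. These probe sets give no common direction for BCL2L11, and whether they read different splice forms was not tested.

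TNFRSF10B encodes DR5, a receptor for the ligand TRAIL, and is a textbook target of CHOP. Its bright probe set 209295_at had 9402 in complete medium, 10342 without leucine and 10450 without lysine, 0.14 and 0.15 higher. The dimmer 209294_x_at had 238, 282 and 235 (0.25 and -0.02), 210405_x_at had 393, 351 and 358 (-0.16 and -0.13), and 1556645_s_at was at the floor on all 3 arrays. No kept TNFRSF10B probe set differed by more than the SD over all kept probe sets (0.49 and 0.57). On the same arrays DDIT3, the CHOP gene, had 319 in complete medium, 2830 without leucine and 2776 without lysine, 8.87- and 8.70-fold higher on 1 probe set.

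**Figure D3:**
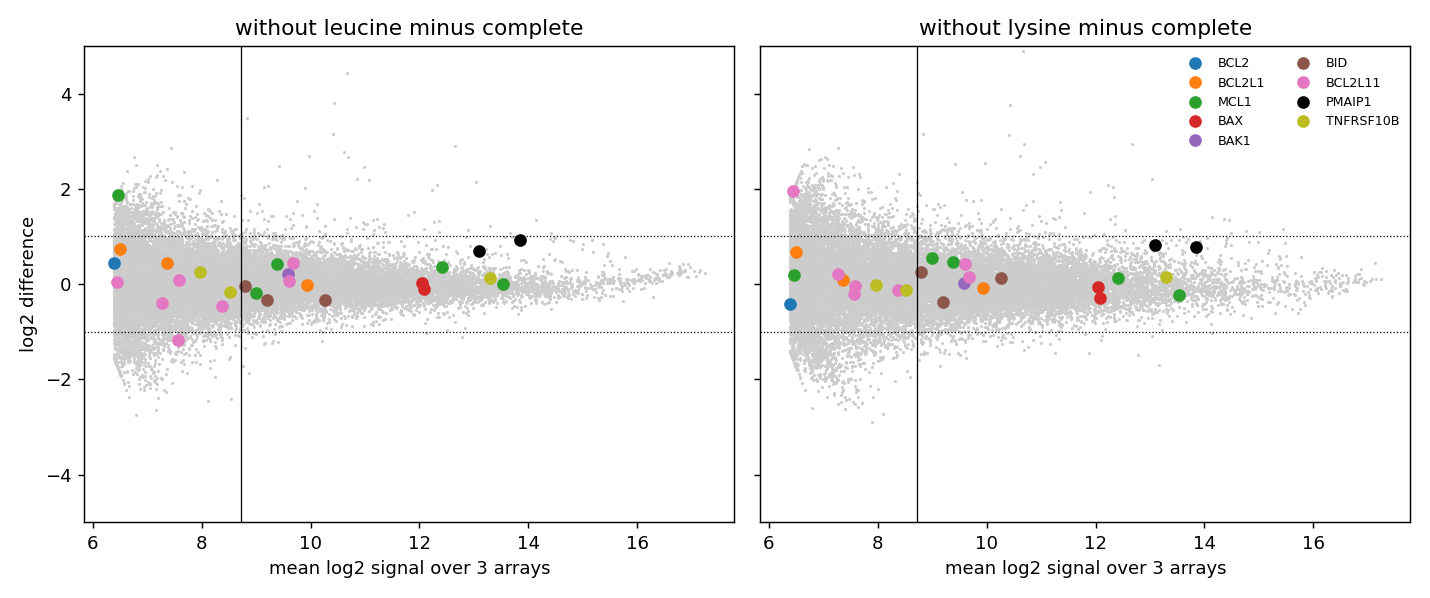
Log2 difference from complete medium against mean log2 signal over the 3 arrays, without leucine (left) and without lysine (right), for 23055 kept probe sets (grey) and the 27 of the 9 genes (coloured); the vertical line is the median level that separates bright from dimmer probe sets. The grey cloud widens to the left, the PMAIP1 points lie at its upper edge at high signal, and every coloured point beyond 2-fold (dotted lines) lies at low signal.

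The deprived arrays were also set against each other. The median difference of leucine- over lysine-deprived was 0.19 over the 9 genes, beside 0.02 over all genes, and 7 of the 9 lay above 0, as did 51.9% of all genes. This takes 1 probe set per gene, and the value of BCL2 among the 7 (0.85) is a bound. Over the 27 kept probe sets the median was 0.07, beside 0.02 over all kept probe sets, and 15 lay above 0. No kept probe set with both arrays above the floor was 2-fold higher (2.30% of all kept probe sets) or 2-fold lower (3.16%), which is near these shares. As bounds, 200796_s_at of MCL1 was at least 3.18-fold higher without leucine than without lysine, and 208536_s_at of BCL2L11 at least 3.76-fold lower. At 1.5-fold, 3 were lower without leucine than without lysine (9.98% of all): 1555372_at (-0.95) and 222343_at (-0.61) of BCL2L11 and 214057_at (-0.73) of MCL1. BID differed by -0.46 on its brightest probe set, above the SD of 0.32 for bright probe sets in this comparison, and by -0.29 and 0.05 on the others.

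The genes around this core came from 5 lists, each gene taken by its brightest kept probe set. Among other BCL2 relatives 13 of 15 genes were kept, and 2 were at least 2-fold higher after each deprivation, beside 2.52% and 3.98% of all genes; none was 2-fold lower (1.36% and 1.84%). The list's median was -0.03 after leucine removal and 0.13 after lysine removal. Under 5 alternatives, among them quantile normalization, the count was 1 after leucine removal. HRK, a BH3-only gene, was higher on every probe set that rose above the floor. Its brightest, 206864_s_at, had 169 in complete medium, 428 without leucine and 381 without lysine, 2.54- and 2.26-fold higher, and 237187_at had 154, 296 and 325. Probe sets 229552_at and 206865_at were at the floor in complete medium and reached 178 and 136 without leucine and 177 and 89.1 without lysine, at least 3.27- and 2.49-fold and at least 3.24- and 1.63-fold higher. These probe sets overlap in gene and share the same RNA, so they are not replicates, and all are dim.

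The other relatives with the largest mean absolute differences over the 2 deprivations each rest on 1 kept probe set, which is dim. BCL2L10, a survival relative, had 82.9, 170 and 270, or 1.03 and 1.70 higher, while its probe set below the filter went the other way (119 in complete medium and at the floor without leucine and without lysine). BMF, a BH3-only gene, had 177, 91.3 and 247 (-0.96 and 0.48). BCL2L2, the survival gene for BCL-W, had 299, 203 and 427 (-0.56 and 0.51), while its probe set below the filter, with 68.1 in complete medium, was at the floor on both deprived arrays. The kept probe sets of BMF and BCL2L2 thus lay below complete medium without leucine and above it without lysine, which the second BCL2L2 probe set did not share.

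The machinery downstream of mitochondria had medians slightly below 0. In the list of apoptosome, caspase and IAP genes 18 of 21 were kept and 0 passed 2-fold in any direction. The medians were -0.15 and -0.10, beside 0.01 and 0.00 over all genes. Of the 18, 5 and 6 lay above 0, against 51.7% and 50.5% of all genes. With 2.52% and 3.98% of all genes 2-fold higher and 1.36% and 1.84% lower, a count of 0 is near the background. CASP9, the apoptosome's caspase, had 0.81 and 0.32 on its brightest probe set but -0.29 and -0.09 on the other kept one. CASP6, an executioner caspase gene, had -0.65 and -0.57, with another probe set at 0.15 and 0.13. ENDOG and DFFB, nuclease genes, differed by -0.25 and -0.34 after leucine removal and by -0.92 and -0.79 after lysine removal.

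For death receptors and their adaptors 12 of 16 genes were kept, with medians of -0.01 and -0.01. None passed 2-fold after leucine removal and 1 did after lysine removal: TNFRSF12A, the receptor of the cytokine TWEAK, which had 1168, 1885 and 2438 (0.69 and 1.06). These counts are near the shares of all genes that were 2-fold higher (2.52% and 3.98%). CASP10, an initiator caspase gene, had 0.98 and 0.27, near the floor. TNFRSF25 had 0.01 and 0.93, with its other probe sets from -1.54 (a bound, at the floor without lysine) to 1.65 after lysine removal. TNFRSF21, a receptor gene with a death domain, had -0.24 and -0.59, and -0.50 and -0.27 on its other probe set.

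The upstream ATF4 and CHOP axis was known beforehand to be high on these arrays. Of its 12 genes 9 were at least 2-fold higher after each deprivation and none was 2-fold lower. Among all genes 2.52% and 3.98% were 2-fold higher and 1.36% and 1.84% lower. The medians of the axis were 1.73 and 1.78. TRIB3, a pseudokinase gene induced by CHOP, had 3.80 and 3.75, with 1.75 and 0.55 as bounds on its other probe set. DDIT4, an inhibitor of mTORC1, had 2.91 and 2.93, and CHAC1, a glutathione-degrading enzyme gene, 2.69 and 2.54. PPP1R15A, a CHOP target that restores translation, had 0.38 and 0.79, with 1.86 and 0.06 on its other kept probe set. ERO1A, an ER oxidase gene also known as a CHOP target, had -0.54 and -0.44, with its others from -0.11 to 0.36 and from -0.14 to 0.02.

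PMAIP1 and BBC3 are also known targets of p53. In the list of p53 and its targets 14 of 18 genes were kept, 0 passed 2-fold after leucine removal and 1, TP53INP1, was 2-fold lower after lysine removal (1729, 1378 and 825, or -0.33 and -1.07). Of all genes 2.52% were 2-fold higher and 1.36% lower after leucine removal, and 3.98% and 1.84% after lysine removal, so these counts are near the background. The medians were -0.01 and -0.13. MDM2, the ubiquitin ligase gene that p53 induces, had 0.02 and 0.66 on its brightest probe set, and its other kept ones ran from -0.30 to 1.37 and from -1.19 to 0.92. The -1.19 is a bound, with the lysine-deprived array at the floor. ZMAT3 had -0.68 and -0.45, and its 4 other kept probe sets ran from -0.93 to 0.14 and from -1.37 to -0.04. XPC, a DNA repair gene, had -0.37 and -0.43.

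**Figure D4:**
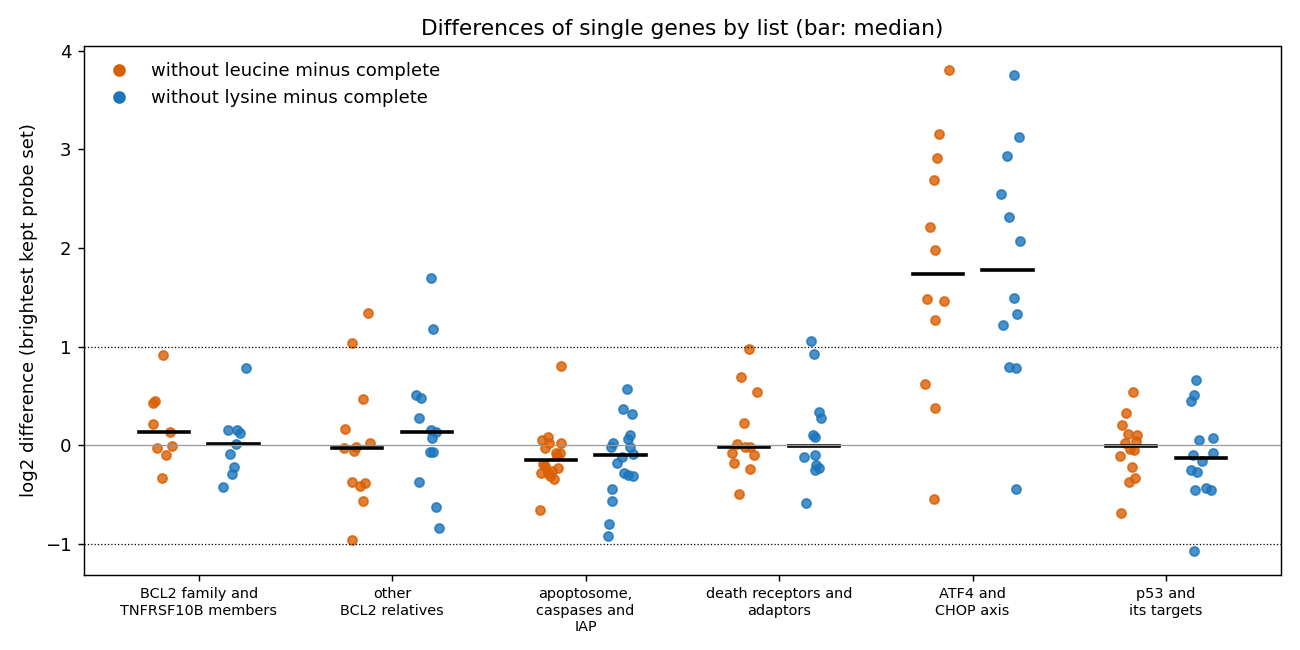
Log2 difference from complete medium of single genes, without leucine (orange) and without lysine (blue), for the 9 measured genes and the kept genes of 5 lists, each by its brightest kept probe set; black bars are medians and dotted lines mark 2-fold. The medians of the ATF4 and CHOP axis are 1.73 and 1.78, and those of every other column lie between -0.15 and 0.14.

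RNA quality and cell identity were looked at on the same arrays. The ratio of 3′ to 5′ control signal for ACTB was 5.44 in complete medium, 7.55 without leucine and 11.2 without lysine, so it was higher in the media in which PMAIP1 and HRK were higher. For GAPDH it was 1.08, 1.23 and 1.25. Its part in these differences was not tested. All 11 measured markers of undifferentiated cells were above the floor on all arrays, with a summed signal from 234818 to 249121; within it GDF3 had 6075 in complete medium, 3949 without leucine and 2218 without lysine. Markers of fibroblasts or feeder cells summed to between 25840 and 29809, with 5 of 10 above the floor on all arrays: COL1A1, COL1A2, THY1, POSTN and TWIST2, of which THY1 is also known in pluripotent cells. Within this sum COL1A1 had 11552, 13186 and 18609 and THY1 12734, 8348 and 7503, in the order complete, leucine-deprived and lysine-deprived. FAP was at the floor on all 3 arrays. Fewer of 6 genes each for endoderm (3), mesoderm (3) and neural ectoderm (1), and 2 of 5 for trophoblast, were above it throughout, with summed signals of 513 to 803, 993 to 2023, 3953 to 4385 and 316 to 578. The neural sum is nearly all NES (3818 to 4232). In such bulk RNA, a change in all cells and a change in some cells cannot be told apart.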

How the data were processed

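RNA of khES3 cells was measured on 1 array per medium. The authors deposited linear signal intensity for each probe set, made with MAS5, per the submitters' processing notes. Its version is not given in the sources used here. The deposited intensity values had a 2% trimmed mean of 500.1 on every array, so differences in total mRNA between arrays were removed. Of 54613 probe sets that are not controls, 41091 name 1 gene in the platform annotation, 1801 several and 11721 none here; 41037 of the singly named matched the RefSeq gene table of GRCh38.p14 by Entrez identifier. Each array was floored at its 40th percentile and taken to log2, and probe sets with a mean at or above the median were kept. Differences were counted past 2-fold only with both arrays above the floor. With 1 array per group no test was possible, and the number of arrays limits the precision. Every member was named with all its probe sets, and for each list up to 4 genes with the largest mean absolute difference; PPP1R15A and ERO1A were added after their values were seen. The members and lists were chosen with earlier results of these data known. The alternatives tried were cyclic loess or quantile normalization, centring on the median, a floor at the 20th or 60th percentile, log2(value + 32), no level filter or the 70th percentile, means over probe sets, no probe sets marked as shared (_s_at) or cross-hybridising (_x_at), and thresholds of 1.5- and 3-fold. The calculations were tested on simulated arrays. R 4.3.3 with limma 3.58.1 and Python 3.11.15 with pandas 2.3.3, numpy 2.4.6 and matplotlib 3.10.9 were used.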

Additional observations from a re-analysis of the deposited data

How the results depend on the processing

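The median difference of the member genes that had a value kept its sign under all 10 alternatives. It lay between 0.04 and 0.22 after leucine removal, 0.02 and 0.15 after lysine removal and 0.03 and 0.19 for leucine- over lysine-deprived. Not every median covers all 9 genes. BCL2 has no value with the level filter at the 70th percentile. BCL2, BAX and PMAIP1 have none without probe sets marked as shared or cross-hybridising, the setting that gave 0.03. PMAIP1 stayed between 0.81 and 0.96 after leucine removal and between 0.78 and 0.82 after lysine removal under the 9 alternatives that gave it a value. The count of 1 kept probe set past 2-fold after leucine removal was 0 flooring at the 60th percentile, with log2(value + 32), with the level filter at the 70th percentile and at 3-fold, and 4 at 1.5-fold. At 1.5-fold the counts after lysine removal and for leucine- over lysine-deprived, 0 at 2-fold, were 3 and 3. Between the deprivations these 3 were lower without leucine, as were 9.98% of all kept probe sets. For the deprivations over complete medium the 1.5-fold share of all kept probe sets is not given. The counts of 4 and 3 are therefore not set against a background and say nothing about the genes as a set. The 4 were of mixed direction: the 2 PMAIP1 probe sets and 206665_s_at of BCL2L1 were higher, and 1555372_at of BCL2L11 was lower. The 3 after lysine removal were the 2 PMAIP1 probe sets and 206665_s_at, all higher. Of single genes, the means of the kept probe sets gave 0.49 for MCL1 and -0.20 for BCL2L11 after leucine removal and -0.54 for BCL2L11 between the deprivations, and the brightest MCL1 probe set not marked as shared gave 0.47 after lysine removal. The mean of 0.49 includes the bound of 1.86 on 200796_s_at, and that of -0.54 the bound of -1.91 on 208536_s_at. BCL2 was 0.72 after lysine removal flooring at the 20th percentile and 0.51 with log2(value + 32), against a bound of -0.42. Both settings read another probe set, 203685_at, as the brightest. Flooring at the 60th percentile gave 0.14, with all 3 arrays at the floor, so that this value has no direction. Between the deprivations these 3 settings gave -0.59, -0.43 and -0.11, against 0.85. Of 165 counts of list genes under the alternatives, 136 stayed within 1.5 times the reported count. The 2 BCL2 relatives past 2-fold after leucine removal became 1 under quantile normalization, the higher floor, log2(value + 32), the higher level filter or without shared probe sets, and after lysine removal 1 under the higher floor or level filter. Without shared probe sets 6 genes of the ATF4 and CHOP axis passed after leucine removal and 5 after lysine removal, rather than 9. DDIT4, whose only probe set is 202887_s_at, has no value in that setting, so part of this drop is a lost value and not a smaller difference. No paired analysis was possible because each group has 1 array. Dim signals near the floor limit what is said of BCL2, HRK and most BCL2L11 probe sets.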
